A study of Mus musculus with 6 samples.

Results

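Ccl2, Ccl7, Ccl12, Ccl8, Ccl11 and Ccl24 are the mouse CC chemokines best known for attracting monocytes and eosinophils. They were measured in myeloid cells sorted from the infarcted heart and from the spleen. The genes were taken by name from a list of 6 symbols, drawn up with earlier results of these data known, and each was represented by 1 probe among the 28312 named genes of the array. Of the 6 genes, 5 could be tested and all 5 were higher in the heart cells at an adjusted p under 0.05 (limma), against 8.88% of the 16365 genes tested. This count supports no statement about the group, because Ccl7, Ccl8 and Ccl12 entered the test only through their signals on the heart arrays. Ccl7 was at least 3590-fold higher there, Ccl12 913-fold with 2 of 3 spleen arrays measurable, Ccl2 167-fold, Ccl8 at least 57.1-fold and Ccl24 41.5-fold. The bounds depend on the background correction: with another, normexp, they were 1110-fold for Ccl7 and 22.4-fold for Ccl8. Ccl11 was not well above background on any of the 6 arrays.

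The animals were wild-type mice of the C57BL/6N strain, and tissue was taken on day 3 after an acute myocardial infarction (AMI). Cells with high CD45 and CD11b and low staining for B220, Thy-1.2, NK-1.1, DX5 and Ly6G were sorted by flow cytometry, a gate for monocytes, macrophages and related myeloid cells that selects against lymphocytes and neutrophils by their surface proteins. Neutrophil transcripts were nevertheless abundant in the spleen samples, as given with the marker lists. The heart group held the sorted cells of 3 infarcted left ventricles (heart 1, 2 and 4), and the spleen group those of 3 spleens (spleen 1, 2 and 4), each organ analysed on an array of its own. The spleens also came from infarcted mice, so every comparison is between 2 organs of infarcted animals, and uninjured tissue was not analysed here. The labels used here give no age, and they do not say whether a heart and a spleen of the same number came from one animal.

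Chemokines are small secreted proteins that direct leukocytes along a concentration gradient by binding receptors coupled to inhibitory G proteins. Ccl2, Ccl7 and Ccl12 bind Ccr2, the receptor that inflammatory monocytes need to leave the bone marrow and to enter injured tissue, including the infarcted heart. In the mouse, Ccl8 binds Ccr8, while Ccl11 and Ccl24, the eotaxins, bind Ccr3 on eosinophils. Macrophages and stromal cells make these chemokines in response to interleukin 1 and tumour necrosis factor, and Ccl24 is known as a product of macrophages exposed to interleukin 4.

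The 6 probes are 60 bases long. A stretch of 30 bases of each is shown, 5′ to 3′, with the longest run it shares with another member's probe in capitals.
Ccl2: gtaggagtgacCAGTGTGAcagtgaactag
Ccl7: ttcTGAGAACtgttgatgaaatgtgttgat
Ccl12: ttccccacgggCAGTGTGAtatttattatg
Ccl8: ccttcacacctgagttAAGAGAcagccaaa
Ccl11: TAGGAGTaactgaggataatagcagcttat
Ccl24: ccaaggcagTGAGAACcaagtttgctgtcc
The longest run shared by any pair of the 6 probes was 8 bases, between Ccl2 and Ccl12, and the shortest maximum was 5 bases. Against all other probes of the array, the longest shared runs were 12 to 14 bases of the 60. Probes were compared only with probes, so whether a probe matches the transcript of another member was not examined.

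By the coordinates in the scanner files (mm9), 5 of the probes lie on chromosome 11. The Ccl2 probe lies at chr11:81850650-81850709 and the Ccl7 probe at chr11:81860656-81860715. The Ccl11 probe is at chr11:81876072-81876131, followed by that of Ccl12 at chr11:81916764-81916823 and that of Ccl8 at chr11:81930108-81930167. The Ccl24 probe lies on the minus strand of chromosome 5, at chr5:136046667-136046726. RefSeq's annotation (GRCm38.p6) gives the same order of protein-coding genes on chromosome 11, Ccl2, Ccl7, Ccl11, Ccl12 and Ccl8, with Ccl1 next after them, and places Ccl24 between Ccl26 and Rhbdd2. Whether each probe lies in coding sequence or in an untranslated part of its transcript was not examined here. The files name the transcripts as NM_011333 (Ccl2), NM_013654 (Ccl7), NM_011331 (Ccl12), NM_021443 (Ccl8), NM_011330 (Ccl11) and NM_019577 (Ccl24).

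Levels below are log2 processed signals relative to the 75th percentile of their array, so a level of 0 is the signal of the probe at that percentile. The 75th percentile lay between 1451 and 1870 intensity units, and the share of probes that the scanner program called well above background ran from 52.8% to 63.6%. The lowest signal of such a probe was 35.1 to 56.5 units, and no spot was saturated. Over 16365 tested genes, limma called 1454 (8.88%) higher and 1067 (6.52%) lower in heart cells at an adjusted p under 0.05, and the median change of all tested genes was 0.10 on the log2 scale. Spleen 4 was as near to the heart arrays as to the other spleen arrays: its mean correlation over probes was 0.964 with the former and 0.96 with the latter. For spleen 1 the corresponding values were 0.93 and 0.957, and for spleen 2 they were 0.951 and 0.966. The arrays lie on 3 slides, with spleen 1 and 2 on the first, heart 1 and spleen 4 on the second and heart 2 and 4 on the third, so that only the second slide held both organs. Heart 4 and spleen 4 carry a later date in their titles than the other 4 arrays.

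Among the Ccr2 ligands, Ccl7 stood at levels of 6.47, 6.04 and 6.57 in heart 1, 2 and 4, which are signals of 133710, 95757 and 160703 units. In the spleen cells its signals were 9.04, 9.63 and 12.6 units, levels of -7.69, -7.37 and -7.04, and none of them was well above background. The heart arrays thus lay close together and far above every spleen array. With each spleen array held at the lowest level measurable on it, Ccl7 was at least 3590-fold higher in heart cells, and the measured means were 6.36 ± 0.28 for heart and -7.37 ± 0.33 for spleen (SD, n = 3 each). The limma change had an adjusted p of 9.62e-06. Under another background correction, normexp, the bound was 1110-fold.

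Ccl12, a mouse chemokine with no direct human counterpart, had heart levels of 4.75, 4.37 and 4.53. Its spleen levels were -5.09, -5.87 and -4.89, and those of spleen 1 and spleen 4 were well above background, while spleen 2, at 27.1 units, was not. The groups did not overlap, and the lowest heart array was 9.25 above the highest spleen array on the log2 scale. The change was 9.83 ± 0.29 (SE) on that scale with an adjusted p of 6.41e-05, and 9.68 with spleen 2 held at its lowest measurable level. With normexp it was 8.43.

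Ccl2, the best studied of the monocyte attractants, was the Ccr2 ligand with a measurable level in all spleen samples. Its probe is printed in 10 places on each array, and the spots of one array differed by a coefficient of variation of 2.73 to 5.56%. The heart levels were 7.16, 6.82 and 7.23, and the spleen levels -1.17, -0.44 and 0.67, corresponding to 829, 1170 and 2632 units in spleen against 215425, 164296 and 253146 in heart. Spleen 4 had the highest spleen signal and spleen 1 the lowest, a spread of 3.58-fold, whereas the heart arrays spread over 1.33-fold. Even so the groups were separated by 6.16 on the log2 scale. The change was 7.39 ± 0.46 (SE, adjusted p = 0.000764), and it was 7.88 without spleen 4 and 6.96 without spleen 1.

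Ccl8, the Ccr8 ligand, was well above background in heart cells alone. Its heart levels were 1.0, -0.07 and 0.24, from 3018, 1381 and 1994 units. The spleen signals were 22.8, 11.2 and 11.6 units, levels of -6.36, -7.15 and -7.15, all below the level that the arrays could measure. Heart 1 was highest and heart 2 lowest, 2.10-fold apart, and no spleen array came near them. The rise was at least 57.1-fold, with measured means of 0.39 ± 0.55 and -6.89 ± 0.46 (SD, n = 3 each) and an adjusted p of 0.000337. With normexp the bound was 22.4-fold.

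The Ccr3 ligands were split. Ccl24 reached heart levels of 3.46, 2.52 and 3.41 and spleen levels of -2.19, -3.0 and -1.56, each of them well above background. Its signals were 16616, 8304 and 17869 units in heart and 410, 200 and 562 units in spleen, so the groups lay 4.08 apart on the log2 scale at their nearest arrays. The change was 5.37 ± 0.43 (SE, adjusted p = 0.00172). With slide as a fixed block, a fit that in effect compares the organs on the second slide alone, the change was 5.02 with an adjusted p of 0.0668. Ccl11, by contrast, gave signals of 9.84, 11.5 and 11.3 units in heart and 7.07, 7.82 and 10.6 units in spleen. None was well above background, so it was not tested and no fold is given.

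**Figure D1:**
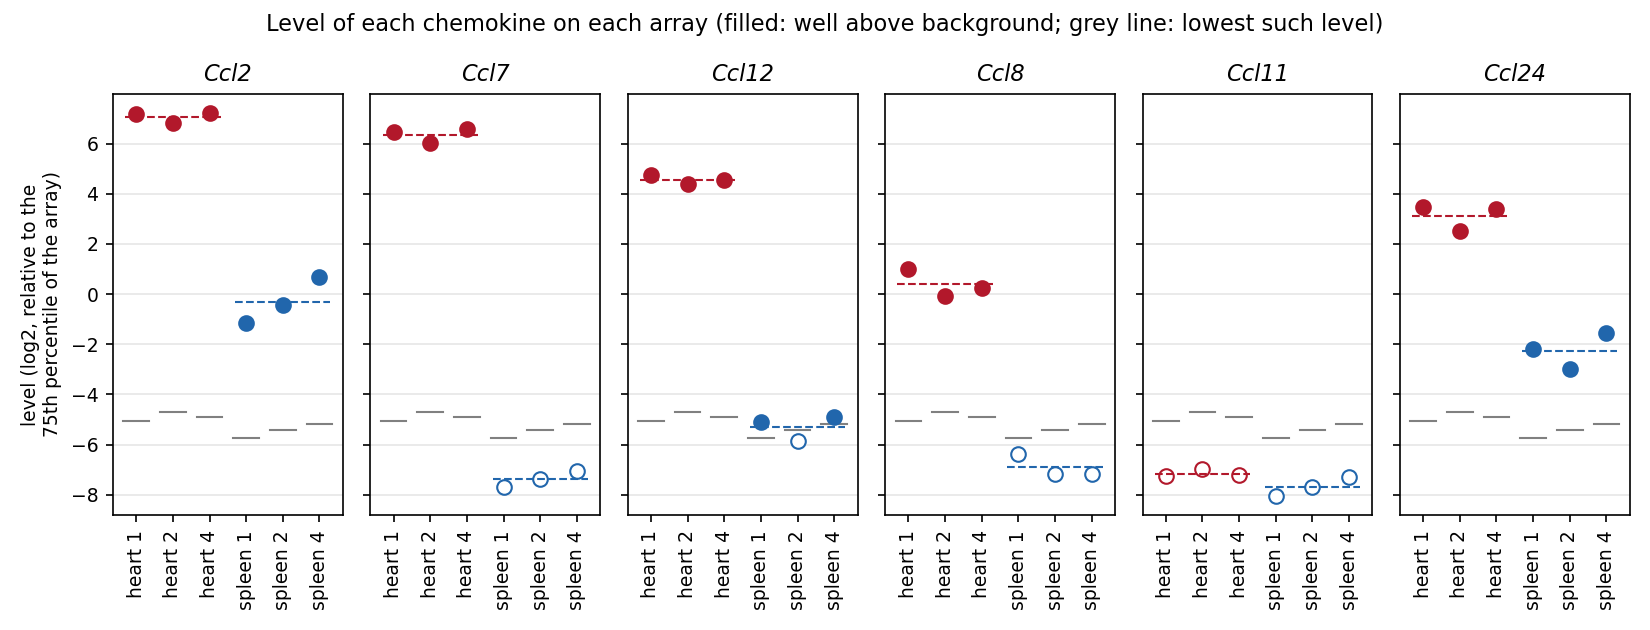
Level of each of the 6 chemokines (y axis, log2 relative to the 75th percentile of the array) on each of the 6 arrays (x axis), heart in red and spleen in blue. Filled points were well above background, open points were not, grey lines mark the lowest level that counted as well above background on that array, and dashed lines are group means (n = 3); for the 5 tested genes every heart point lies above every spleen point, and all Ccl11 points are open.

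Counted over the group, 5 of 6 members were tested and 5 were called higher, against 8.88% of all tested genes. The heart values lay entirely above the spleen values for these 5, as they did for 24.1% of tested genes. Neither count supports a statement about the group as a whole, because Ccl7, Ccl8 and Ccl12 passed the filter on dim probes only through the heart arrays, where they are high. Ccl2 and Ccl24 were well above background on all 6 arrays and would have passed through either organ.

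Within each organ the members did not share one order of arrays, but heart 2 was the lowest heart array for each of the 5 tested genes. Over 16304 genes, heart 2 was the lowest heart array for 34.8%. Spleen 4 gave the highest spleen value for Ccl2, Ccl12 and Ccl24 and, below background, for Ccl7, but not for Ccl8, and it was the highest spleen array for 48% of genes. These orders were not tested.

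Within the parts of the design that slide and date allow, all 5 tested members remained higher in heart cells. On the second slide, heart 1 exceeded spleen 4 by 6.49 for Ccl2, 13.51 for Ccl7, 9.64 for Ccl12, 8.15 for Ccl8 and 5.02 for Ccl24 on the log2 scale. Among the arrays with the later date, heart 4 exceeded spleen 4 by 6.56, 13.61, 9.42, 7.40 and 4.97 for the same genes in that order. Among those with the earlier date, the difference of the means of 2 heart and 2 spleen arrays was 7.80, 13.79, 10.04, 7.22 and 5.58. The Ccl7 and Ccl8 differences here use spleen signals below background. For Ccl2, Ccl7, Ccl12 and Ccl24 both comparisons with spleen 4 gave a smaller difference than the one without it, and for Ccl8 both gave a larger one.

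**Figure D2:**
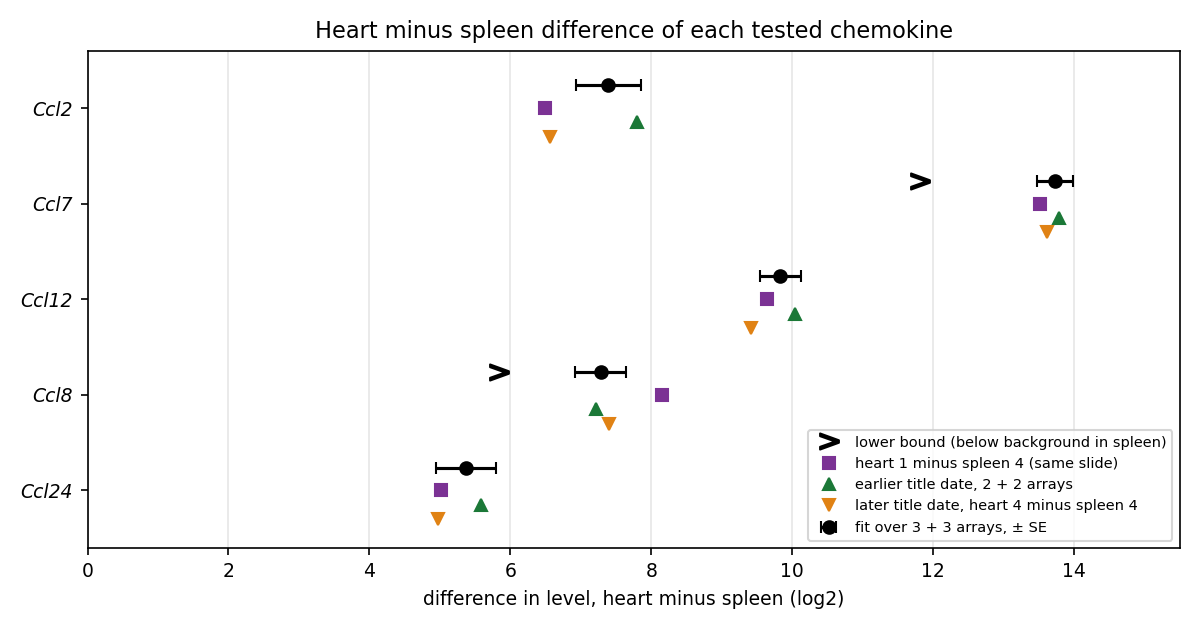
Difference in level between heart and spleen cells (x axis, log2) for the 5 tested chemokines, with the fit over all arrays ± SE in black, the lower bound as an angle bracket where the spleen arrays were below background, and the differences within the second slide and within each title date in colour. The lowest value shown is 4.97, for Ccl24 at the later date, and the bounds of Ccl7 and Ccl8, at 11.81 and 5.84, lie below their fitted values.

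The genes whose 6 levels ran most nearly parallel to each member were found by the root mean square (RMS) distance after each gene was centred on its own mean, over 16299 other tested genes. This is a description over 6 arrays, and it uses levels as measured, also those below background. On all spleen arrays this applies to Ccl7 and Ccl8 and, of the genes named here, to Areg, Cxcl3, Cxcl1, Flrt3, Slc6a8 and Mgarp, so their distances carry spleen levels that the arrays could not measure. For Ccl2 they were Stab1, a scavenger receptor of macrophages, at an RMS of 0.27 and Areg, the growth factor amphiregulin, at 0.29. For Ccl7 they were Cxcl3 at 0.98 and Cxcl1 at 1.27, both CXC chemokines that attract neutrophils. Ccl12 was nearest to Flrt3 (0.39) and Dab2 (0.54), and Ccl8 to Slc6a8, the creatine transporter, at 0.33 and to Timp1, an inhibitor of matrix metalloproteinases, at 0.40. For Ccl24 they were Tgm2, transglutaminase 2, at 0.33 and Mgarp at 0.39.

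The receptors of these ligands are G protein coupled receptors of leukocytes and a few decoys. Of 7 receptors and atypical receptors, 4 were tested, with a median change of 2.17 on the log2 scale. In heart cells 2 were called higher and 0 lower, against 8.88% and 6.52% of all tested genes. At an unadjusted p under 0.05, 3 were higher and 0 lower. Ccr1, which binds Ccl7 among others, changed by 3.28 ± 0.29 (SE, adjusted p = 0.00212). Ccrl2, an atypical receptor that binds chemerin without signalling, changed by 5.14 ± 0.36 (adjusted p = 0.00101).

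Ccr2, the receptor of Ccl2, Ccl7 and Ccl12, had heart levels of 4.53, 4.6 and 4.43 and spleen levels of 2.66, 3.78 and 3.90. All heart arrays were above all spleen arrays, as for 24.1% of tested genes, with spleen 1 farthest below. The change was 1.07 ± 0.35 (SE) and did not pass the threshold (adjusted p = 0.0896), while without spleen 1 it was 0.68 with an adjusted p of 0.0438. Leaving out any other array gave no call, with adjusted p-values from 0.05 without spleen 4 to 0.242 without heart 2. Ccr8, the receptor of Ccl8, gave 0.16 (adjusted p = 0.658). Ccr3, the eotaxin receptor, was well above background on 2 of 3 arrays of each organ and was not tested. Its spleen 1 level of -0.32 was the highest of the 6. Ackr1 and Ackr2, decoy receptors that take up CC chemokines without signalling, were below background on all heart arrays and above it on 1 and 2 spleen arrays.

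Of 13 other CC chemokines, 7 were tested, 2 were called higher and 0 lower (4 and 0 at an unadjusted p under 0.05), with a median change of 1.3. These calls stand beside 8.88% higher and 6.52% lower over all tested genes. Ccl3 changed by 4.95 ± 0.82 (SE, adjusted p = 0.0151) and Ccl4 by 2.29 ± 0.18 (adjusted p = 0.00161). Both are made by activated macrophages. Without any 1 heart array Ccl3 was no longer called, with adjusted p-values of 0.0651 to 0.0709, and without spleen 4 the list had 4 genes called higher. Ccl20, Ccl22, Ccl26 and Ccl28 were not well above background on any array, like Ccl11.

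The list of inducers and regulators holds cytokines, their receptors, transcription factors and RNA-decay proteins known to act on these chemokine genes. Of its 22 genes, 18 were tested, 10 were called higher in heart cells and 0 lower (12 and 1 at an unadjusted p under 0.05). The shares of all tested genes called were 8.88% higher and 6.52% lower. The median change was 1.99, also with Il1a at its bound, against 0.10 over all tested genes. Il1a and Il4, both called, passed the filter on dim probes only through the heart arrays. The counts and the median thus support no statement about the list as a whole. The called genes with the largest changes were Il1a, Il1b, Fos and Tnf. Zfp36 and Zc3h12a, which encode RNA-decay proteins, were also called higher (changes of 2.0 and 2.04, adjusted p = 0.0123 and 0.026). Tnfrsf1a, Nfkb1, Rela and Stat6 were not called (adjusted p = 0.223, 0.886, 0.236 and 0.961). Il1a and Il1b encode the interleukin 1 cytokines. Il1a was at least 24.9-fold higher, its spleen arrays all being below background (adjusted p = 0.000663), and Il1b changed by 4.4 ± 0.71 (SE, adjusted p = 0.0138). Il1b lost its call without any 1 heart array, with adjusted p-values of 0.059 to 0.0694. Fos, a subunit of the AP-1 transcription factor, changed by 2.35 ± 0.29 (adjusted p = 0.00607), and Tnf, which encodes tumour necrosis factor, by 2.31 ± 0.31 (adjusted p = 0.00843). The count was 4 when any 1 heart array was left out, 6 with the arrays of the earlier date alone and 0 with slide as a fixed block. Il4, the cytokine named above for Ccl24, changed by 1.99 (adjusted p = 0.0495), a call lost without any 1 heart array and without spleen 2 or spleen 4. Il4ra, a chain of its receptor, changed by 2.0 ± 0.2 (SE, adjusted p = 0.00304). Il13 and Il33 were not well above background on any array.

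Chemokine receptors share a machinery of G proteins, kinases, arrestins and regulators. All 15 genes of this list were tested, with a median change of 0.10. Of them 1 was called higher and 2 lower, against 8.88% and 6.52% of all tested genes. Rgs1, a regulator that ends G protein signals, changed by 7.38 ± 1.83 (SE, adjusted p = 0.0419). Its spleen levels had an SD of 4.02. Only 1 of 3 spleen arrays was well above background, so Rgs1 passed the filter on dim probes only through the heart arrays. It lost the call without any 1 heart array and without spleen 2 or spleen 4. Grk6, a receptor kinase, fell by 1.14 on the log2 scale (adjusted p = 0.0178), and Rgs18 fell by 0.91 (adjusted p = 0.0424). The 2 lower calls became 0 with median scaling, 4 with quantile scaling and 0 without any 1 heart array.

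**Figure D3:**
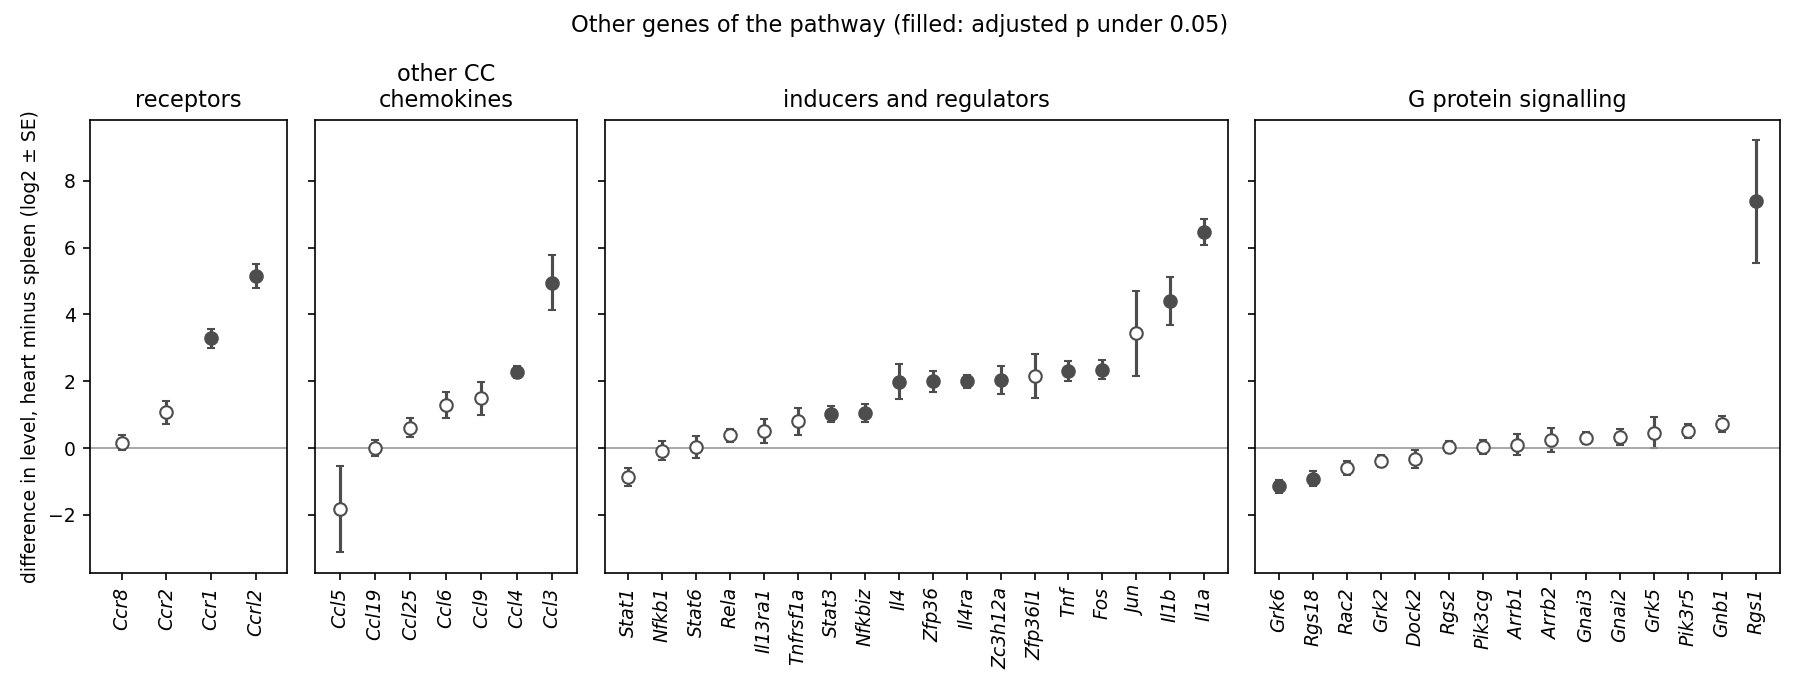
Difference in level between heart and spleen cells (y axis, log2 ± SE) for the tested genes of the 4 pathway lists (x axis), with filled points where the adjusted p was under 0.05. Most points lie above 0 in the first 3 panels, while those of G protein signalling lie near 0 apart from Rgs1.

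Because the RNA came from sorted populations, fewer cells of a type and less RNA per cell cannot be told apart, and the marker lists of other cell types are given beside the chemokine results. Summed signals are relative to the 75th percentile of the array. Counts of called markers, here and below, stand beside 8.88% higher and 6.52% lower over all tested genes. The 8 monocyte and macrophage markers summed to 527 to 601 in heart and 172 to 389 in spleen, with 3 called higher and 0 lower. Fcgr1, among those called, lost its call without any 1 heart array (adjusted p = 0.128 to 0.135). Of 11 markers of resident cardiac macrophages, 9 were tested and 5 were called higher, Folr2, Mrc1, Cbr2, Gas6 and Stab1. Not all these calls were stable: Folr2 and Cbr2, for example, lost theirs without any 1 heart array (adjusted p = 0.0548 to 0.0842). Gas6 passed the filter on dim probes only through the heart arrays. The list summed to 78.6 to 83.3 in heart and 21.2 to 90.1 in spleen. F13a1 had its highest level on every array and was not called (change 0.56, adjusted p = 0.548). Lyve1 (-1.44, adjusted p = 0.547) and Fcna (-1.21, adjusted p = 0.426) were lower without a call. Timd4 was below background on all heart arrays, and Cd163 on all arrays. Neutrophil markers summed to 19.3 to 27.7 in heart and 483 to 961 in spleen, with 5 of 6 called lower in heart cells.

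Non-myeloid markers also differed. Of 10 fibroblast markers, 6 were tested and all 6 were called higher, with sums of 8.37 to 9.73 in heart and 0.141 to 0.288 in spleen. Col1a1, Col3a1, Dcn, Mgp and Pdpn passed the filter on dim probes only through the heart arrays. So did the called cardiomyocyte and endothelial genes, and these counts support no statement about the lists as a whole. Col1a1, for example, also lost its call without any 1 heart array (adjusted p = 0.0623 to 0.0733). Pdpn had the highest level of the fibroblast list on each heart array (2.85, 1.79 and 2.68 in heart 1, 2 and 4). Col1a2 came next at -0.35, 0.86 and -0.66, so Pdpn was the largest part of each heart sum. Lum and Postn were well above background on 2 and 1 heart arrays and were not tested. Pdgfra and Tcf21 were not well above background on any array. Cardiomyocyte markers summed to 0.556 to 0.94 and 0.228 to 0.32, with 3 of 5 tested genes called higher and Pln below background throughout. Endothelial markers summed to 2.67 to 3.49 and 2.2 to 2.3, with 2 of 5 tested genes called higher and Tie1 and Emcn below background throughout. Kdr had the highest level of this list on every array and was not called (change 0.5, adjusted p = 0.16). The called genes, Cdh5 and Cldn5, lay between -3.61 and -2.22 in heart. Both lost their calls without any 1 heart array (adjusted p = 0.0897 to 0.122). Lymphocyte markers summed to 0.762 to 0.942 in heart and 0.989 to 26.2 in spleen, spleen 1 being the highest, and 0 of the 2 tested genes were called (1 lower at an unadjusted p under 0.05). The part of the fibroblast, cardiomyocyte, endothelial and neutrophil signals in the chemokine differences was not tested.

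The eosinophil markers bear on the eotaxins. Their sums were 0.261 to 0.303 in heart and 0.366 to 3.13 in spleen. Of 3 tested genes 0 were called higher and 1 lower, Prg2, which encodes the major basic protein of eosinophil granules. Prg2 was at least 10.3-fold lower in heart cells. The fit on levels as measured, also below background, gave -5.58 ± 0.81 (SE, adjusted p = 0.01). It passed the filter on dim probes only through the spleen arrays, where it is high. Prg2 and Epx, the eosinophil peroxidase gene, were below background on all 3 heart arrays. Siglecf and Il5ra, which encode surface receptors of eosinophils, were well above background on all 3 heart arrays and were not called (adjusted p = 0.174 and 0.679), and Ccr3 was above it on 2. The part of eosinophils in the Ccl24 difference was not tested.

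**Figure D4:**
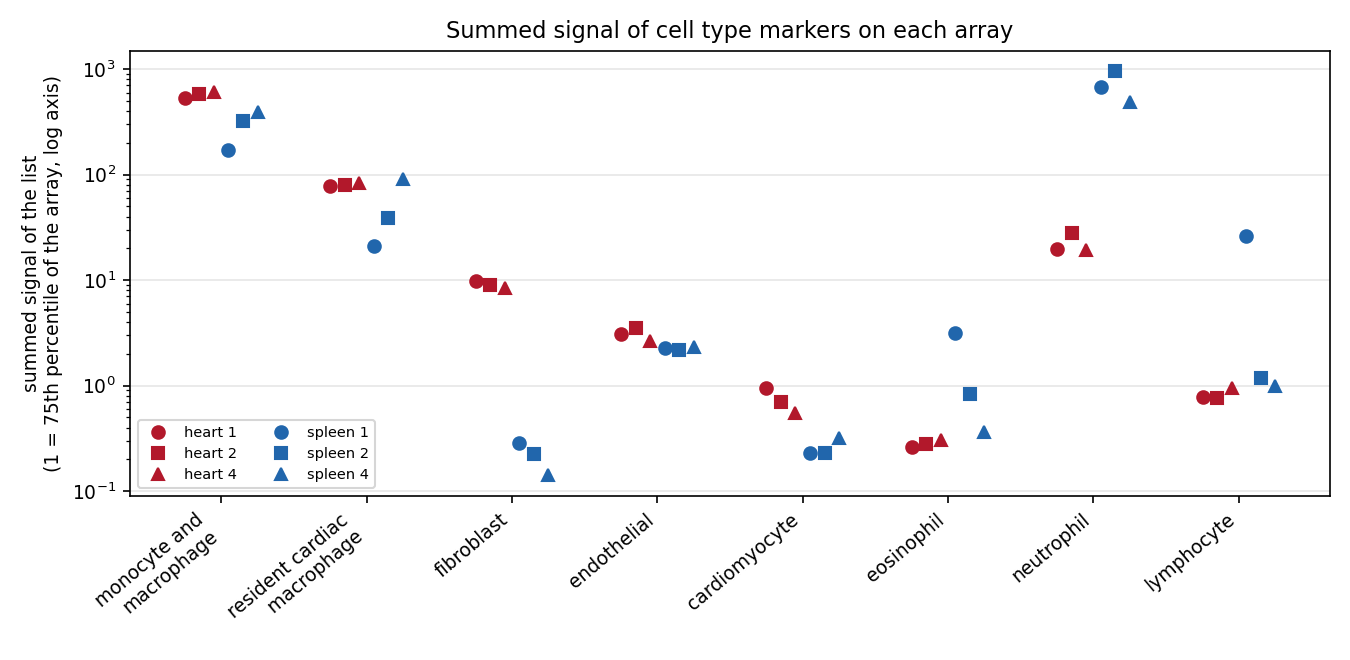
Summed signal of each cell type marker list (x axis) on each array (y axis, log axis, 1 is the 75th percentile of the array), heart in red and spleen in blue with a shape for each replicate number. Fibroblast sums are higher on every heart array, neutrophil sums are higher on every spleen array, and spleen 1 has the highest lymphocyte and eosinophil sums.

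RefSeq's promoter table (GRCm38.p6) held entries for Ccl12 and Ccl8, neighbours on chromosome 11 that were both measurable in heart cells. The part of any promoter element in the heart differences was not tested. The 150 bases before each start site are shown, plus strand, 5′ to 3′, with the TATA box in capitals.
Ccl12, chr11:82101695-82101844: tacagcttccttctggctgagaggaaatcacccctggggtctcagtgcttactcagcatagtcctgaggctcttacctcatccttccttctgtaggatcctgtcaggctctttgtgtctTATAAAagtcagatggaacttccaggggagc
Ccl8, chr11:82115035-82115184: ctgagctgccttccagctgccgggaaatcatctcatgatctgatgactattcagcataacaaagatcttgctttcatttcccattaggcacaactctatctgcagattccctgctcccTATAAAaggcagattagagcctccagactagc
Motifs were searched on both strands of the whole window, which runs from 250 bases before to 50 bases after the start. The TATA box, TATAAA, began 31 bases upstream of the start in Ccl12 and 32 bases upstream in Ccl8, and 13.6% of the 32851 promoters in the table held it. AP-1 (TGANTCA, in 7.81% of promoters), the HIF core (ACGTG, 19.6%), STAT6 (6.95%), C/EBP (TTGCNNAA, 10.8%) and NF-kappaB (8.46%) had no match in these windows. The longest run the windows shared was 11 bases.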

How the data were processed

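RNA of 6 samples was hybridised to 1-colour Agilent arrays. With Agilent Feature Extraction 10.7.3.1, named in the submitters' processing notes and, per the file headers, the scanner program, the authors made the deposited spot intensities, which are background-subtracted and not scaled between arrays. The deposited table of values holds log2 values, centred for each gene by the authors. Between arrays its differences followed quantile-normalized scanner values (r from 0.9998 to 1 over 19313 probes, 15 pairs of arrays, column medians 0), and no header states how it was made.

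Control and outlier spots were left out, the log2 intensities of a probe's spots were averaged, and each array's 75th percentile was subtracted. Probes well above background on all arrays of 1 organ or more, with at least 2 usable values in each organ, were tested (21801 of 39429). Of several tested probes of a gene the one with the highest mean was used, and symbols were updated by accession for 26412 of 35777 named probes. The organs were compared with limma 3.58.1 (R 4.3.3, lmFit and eBayes, two-sided, no covariate) with Benjamini-Hochberg adjustment over 16365 genes and a threshold of 0.05, after a test on simulated data.

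Bounds set the bright organ's mean against the mean of, per array, the dim probe's own level or, where higher, the lowest level that counted as well above background. Each sample is 1 organ, per the labels, so p-values measure the spread between 3 hearts and between 3 spleens. The number of arrays limits the precision. The members and lists were chosen with earlier results of these data known. Besides the members, the text names all receptors of the list but 1, which is not reported here and was left out of its counts, the called genes with the 4 largest changes of each other pathway list, the 2 genes most parallel to each member, and markers by count. Some genes were named after their values were seen. These are Il4, Il4ra, Zfp36, Zc3h12a, Tnfrsf1a, Nfkb1, Rela, Stat6 and the named eosinophil, fibroblast, endothelial, monocyte and resident macrophage markers. The genes below background on all arrays, Il13 and Il33 among them, were also named in this way. Alternatives covered background correction, scaling, the filter, outliers, the probe rule, slide, date, the replicate number, the variance model, the deposited values and leaving out each array.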

Additional observations from a re-analysis of the deposited data

How the results depend on the processing

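The number of arrays limits these results: with 3 against 3, leaving out 1 array changed the count of genes called from 2521 to between 482 and 4229 (482, 505 and 516 without heart 1, 2 and 4, and 4229 without spleen 4), and dim probes give bounds that depend on the background correction. Without the filter on dim probes 1449 genes were called, and with slide as a fixed block 85. Heart and spleen arrays of the same number did not deviate together (r of -0.0533, 0.0396 and 0.00909 for numbers 1, 2 and 4), so the numbers were not taken to pair the samples. With the replicate block 1587 genes were called, all 5 tested members kept their call, and 1 gene of the G protein list was called lower.

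Ccl2, Ccl7, Ccl12 and Ccl8 stayed called under every alternative that tested them, with log2 changes of 6.49 to 7.88, 10.76 to 13.89, 8.43 to 10.04 and 4.77 to 8.15. Ccl24 ranged from 5.0 to 5.72 and lost its call only with slide as a fixed block (5.02, adjusted p = 0.0668; over its alternatives 0.000496 to 0.0668). Leaving out each array gave 6.96 to 7.88, 13.57 to 13.89, 9.54 to 10.03, 6.97 to 7.54 and 5.0 to 5.72 for Ccl2, Ccl7, Ccl12, Ccl8 and Ccl24, with 5 members called each time. For Ccl7 and Ccl8 these ranges use spleen signals below background on all spleen arrays. Their lower bounds in the main analysis were 11.81 and 5.84 on the log2 scale. With probes required above background on all 6 arrays only 2 members were tested, and 2 were called. The bound of Ccl7 was 1110-fold and that of Ccl8 22.4-fold with normexp. Without the filter Ccl11 gave 0.51 ± 0.25 (adjusted p = 0.206), from signals below background.

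The other lists moved more. With slide as a fixed block 0 receptors, 0 other CC chemokines, 0 inducers and 0 G protein genes in either direction were called. Inducers called higher numbered 6 without the filter and 6 with the earlier date alone, and 4 to 10 without 1 array. Other CC chemokines called higher ranged from 1 to 4 without 1 array. G protein genes called higher ranged from 0 to 2 without 1 array and were 0 without the filter, with probes above background on all 6 arrays, with date as a block and with the earlier date alone. Those called lower ranged from 0 to 2 without 1 array; they were 4 with quantile scaling and with the deposited table, 0 with median scaling and the earlier date alone, and 1 without the filter, with date as a block and with array weights. Median scaling moved the median change of all genes from 0.10 to 0.22 and quantile scaling to 0.04, and 62.2% and 54.7% of calls were then higher, against 57.7%. The settings for these lists beyond background correction, scaling, the block and leaving out arrays were chosen after seeing the data.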
